A study of Mus musculus with 12 samples.

Results

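Transcripts of blood vessel cells were followed in astrocyte sorts from the mouse hippocampus: 40 listed marker genes of endothelial cells, mural cells and fibroblasts, of 56941 genes in the deposited table. All 40 were found by symbol. They were split by role into 20 endothelial genes, 7 pericyte genes, 5 smooth muscle genes, 5 fibroblast genes and 3 genes of the vessel matrix. Most endothelial members went together across the samples. The pericyte members did not follow them, apart from Rgs5 by a narrow margin. Of 20 endothelial transcripts, 16 were highest in A1, A2 and A4 and lower in A8, A9 and A10, an order that cuts across the 2 genotypes. None of the members passed the test between genotypes.

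The samples are hippocampal astrocytes of adult naive male mice, collected by flow sorting for the surface antigen ACSA-2 and made into low-input SMART-Seq libraries. The group labelled Ctrl (A1, A2 and A8) carries the floxed gene for TNFR2, Tnfrsf1b fl/fl, and no recombinase. The group labelled cKO (A4, A9 and A10) carries the same floxed gene with GfapcreERT2, a recombinase driven by the Gfap promoter and therefore aimed at astrocytes, not at vessel cells. Tamoxifen dosing, exact age and whether an A number is 1 animal or a pool are not given in the sources used here. Each A number has an S1 and an S2 library, which were averaged to 1 unit, so n is 3 units of each genotype. Tests therefore measure the spread between these units, whose source is not stated.

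Brain capillaries are tubes of endothelial cells joined by tight junctions, which form the blood-brain barrier. Pericytes sit on the capillary wall inside the same basement membrane, smooth muscle cells wrap arterioles, and fibroblasts lie around larger vessels and in the meninges and choroid plexus. Astrocyte endfeet cover this wall from the outside. Fewer cells of a type and less RNA per cell cannot be told apart in bulk libraries such as these.

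The libraries held 17311872 to 35323322 reads as recovered from the steps between low values, and the S2 libraries were the deeper. Values are FPKM, fragments per kilobase of gene and per 1000000 assigned, so levels can be compared between genes. Astrocyte markers dominated: the 14 on the list summed to 4158 to 5099 FPKM in the units labelled Ctrl and 4969 to 5684 FPKM in those labelled cKO, against 64.8 to 204 FPKM for the 20 endothelial genes over all units. The ablated gene, Tnfrsf1b, was at 0 in 9 of 12 libraries and does not check the labels: it had 10 and 22 reads in S1 and S2 of A4, which is labelled cKO, and 4 in Ctrl A1 S1. Ctrl and cKO below therefore stand for the labels. The 12 oligodendrocyte markers summed to 1096 to 2354 FPKM in Ctrl and 313 to 753 FPKM in cKO. All 12 had a lower mean in cKO, 11 had cKO units all below the Ctrl units (7.26% of all genes tested did), and 0 passed limma's adjusted threshold (smallest adjusted p = 0.326; 12 had an unadjusted p under 0.05). Their part in the results below was not tested.

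Promoters are shown for a few members whose levels the results turn on, as the 250 bases before the annotated start, written 5′ to 3′ (RefSeq, GRCm38.p6). They belong to Cldn5, the tight junction protein of the barrier (chr16:18776597-18776846, plus strand), to the angiopoietin receptor Tek (chr4:94739039-94739288, plus strand) and its relative Tie1 (chr4:118489850-118490099, minus strand), and to the pericyte gene Rgs5 (chr1:169655251-169655500, plus strand). Capitals mark CAGGAA or its reverse complement TTCCTG, letters bound by ETS factors such as Erg. Promoter positions cannot be set against the gene starts and ends given below, which are as deposited and do not match GRCm38.

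Cldn5: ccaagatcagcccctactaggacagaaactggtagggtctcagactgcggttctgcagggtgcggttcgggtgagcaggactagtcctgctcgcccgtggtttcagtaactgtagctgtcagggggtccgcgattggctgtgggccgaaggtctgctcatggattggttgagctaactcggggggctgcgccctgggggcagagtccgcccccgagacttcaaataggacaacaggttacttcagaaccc

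Tek: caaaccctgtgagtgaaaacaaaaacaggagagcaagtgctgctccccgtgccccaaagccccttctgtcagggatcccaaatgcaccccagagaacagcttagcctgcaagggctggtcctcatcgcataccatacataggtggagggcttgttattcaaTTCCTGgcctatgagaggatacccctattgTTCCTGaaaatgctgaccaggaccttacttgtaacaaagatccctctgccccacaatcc

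Tie1: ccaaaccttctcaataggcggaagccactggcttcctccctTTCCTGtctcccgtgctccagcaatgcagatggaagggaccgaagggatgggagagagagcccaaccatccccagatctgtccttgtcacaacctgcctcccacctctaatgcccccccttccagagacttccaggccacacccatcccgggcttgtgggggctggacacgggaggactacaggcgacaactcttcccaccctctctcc

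Rgs5: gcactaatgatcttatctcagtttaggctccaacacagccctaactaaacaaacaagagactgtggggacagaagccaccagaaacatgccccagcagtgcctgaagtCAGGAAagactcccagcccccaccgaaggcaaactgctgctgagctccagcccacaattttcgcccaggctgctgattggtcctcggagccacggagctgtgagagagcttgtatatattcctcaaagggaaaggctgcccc

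Of the 40 members, 28 had a RefSeq promoter in the table. The letters CAGGAA, searched on both strands, were in 7 of 18 promoters of endothelial members (Emcn, Erg, Itm2a, Notch4, Pltp, Tek and Tie1). They were in 2 of 5 of pericyte members (Abcc9 and Rgs5) and 1 of 3 of smooth muscle members (Des). Of fibroblast and vessel matrix members, 0 of 2 and 0 of 3 promoters held them. The share over all 32851 promoters at this length was 25.7%. Tek held the letters 89 and 59 bases before its start, and Cldn5 held none in this window. These matches describe letters only.

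Among the junction and adhesion genes of endothelium, Cldn5 had the widest range of the 40 members on the log2(FPKM + 1) scale (3.52) and Esam a narrower one (1.14). Cldn5 (ENSMUSG00000041378, chromosome 16, start 18595597, end 18597012 in the deposited table) was at 23.1, 7.40 and 2.55 FPKM in Ctrl A1, A2 and A8 and at 13.6, 1.11 and 1.55 FPKM in cKO A4, A9 and A10. The highest unit was 20.8-fold above the lowest, and both genotypes held high and low units. Cdh5, which encodes VE-cadherin, was at 5.42, 2.96 and 0.512 FPKM in Ctrl and at 2.40, 0.0578 and 0.625 FPKM in cKO, with A1 highest and A9 lowest as for Cldn5. Pecam1, which encodes the adhesion molecule CD31, was at 3.02 and 1.72 FPKM in A1 and A2, at 2.31 FPKM in A4, and at 0.572 and 0.364 FPKM in A9 and A10. In A8 it was at 0 in both libraries, at least 151-fold lower than in A1 when 3 reads per library are taken as the floor. That floor covers counting error only, because PCR copies of 1 molecule were not marked. Of the whole counts from 1 to 20, 72.6 to 80.4% were even in each library, so 1 fragment may have counted as 2 reads. The floor then stands for fewer fragments than reads, and 151-fold is too high as a lower bound. Esam, another junctional adhesion molecule, had a flatter profile, from 0.885 FPKM in A9 to 3.14 FPKM in A2.

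The receptors of vascular growth factors kept the same order. Flt1, a VEGF receptor, was at 7.07, 7.48 and 1.01 FPKM in Ctrl A1, A2 and A8 and at 7.60, 1.41 and 1.37 FPKM in cKO A4, A9 and A10. The A1, A2 and A4 values lay close together and well above the other units, whose S1 and S2 libraries differed by at most 0.17 on the log2(FPKM + 1) scale. Kdr, the main signalling VEGF receptor, was at 2.94, 1.91 and 0.427 FPKM in Ctrl and at 3.12, 0.702 and 0.907 FPKM in cKO. Tek was at 3.17, 2.57 and 0.285 FPKM in Ctrl and at 2.85, 0.314 and 0.434 FPKM in cKO. Tie1, listed at 0 in both A8 libraries, reached 1.53 FPKM in A4. Eng, a coreceptor for TGF-beta family ligands, departed from this order, because A2 (1.92 FPKM) lay with the low units while A1 (6.23 FPKM) and A4 (5.31 FPKM) were high. Notch4, the Notch receptor of endothelium, also departed, with its lowest value of 0.393 FPKM in A2 and 1.24 FPKM in A8.

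Transporters of the barrier separated into those that followed Cldn5 and 1 that did not. Slco1a4, an organic anion transporter, was at 6.53, 7.79 and 0.470 FPKM in Ctrl and at 7.02, 1.64 and 0.717 FPKM in cKO. Abcb1a, which encodes the efflux pump P-glycoprotein, was at 6.60, 6.85 and 0.647 FPKM in Ctrl and at 6.16, 0.922 and 0.432 FPKM in cKO. Both were nearly level across A1, A2 and A4, where Cldn5 ran from 7.40 to 23.1 FPKM. Mfsd2a (ENSMUSG00000028655, chromosome 4, start 122840643, end 122854981), the transporter of lysophosphatidylcholine carrying omega-3 fatty acid, stood apart at 35.6, 37.5 and 49.5 FPKM in Ctrl and 32.3, 33.6 and 39.8 FPKM in cKO. Its highest unit was A8, the unit where Pecam1, Tie1, Erg and Ly6c1 were all at 0, and its highest value was only 1.53-fold above its lowest.

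Among the other endothelial members, Itm2a, a membrane protein gene of barrier endothelium, was at 21.7, 9.92 and 1.70 FPKM in Ctrl and at 18.4, 2.92 and 2.71 FPKM in cKO. The Ly6 surface antigens Ly6a and Ly6c1 reached 6.45 and 9.46 FPKM in A1, and Ly6c1 was at 0 in both A8 libraries. Ly6c1 and Abcb1a have close copies in the genome, between which reads may have been split, so their levels are less certain. The transcription factor Erg ran from 0 in A8 to 1.55 FPKM in A1. Emcn, a sialomucin of capillaries and veins, was highest in A2 (2.05 FPKM) and reached 1.02 FPKM in A1 and 0.728 FPKM in A4. Cldn5 was therefore 22.7 times Emcn in A1 and 3.61 times in A2, so this ratio was not kept among the high units. Vwf, which encodes von Willebrand factor, was the lowest endothelial member, at 0.0133 to 0.522 FPKM.

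Pltp (ENSMUSG00000017754, chromosome 2, start 164681438, end 164699631), which encodes the phospholipid transfer protein, was the most abundant member, at 58.9, 69.2 and 13.3 FPKM in Ctrl A1, A2 and A8 and at 40.7, 15.5 and 41.7 FPKM in cKO A4, A9 and A10. It was low in A8 and A9, as Cldn5 and Flt1 were, but A10 lay level with A4. The 8 ependymal markers summed to 258, 239 and 60.8 FPKM in A1, A2 and A8 and to 135, 56.0 and 174 FPKM in A4, A9 and A10, with A8 and A9 likewise the lowest, and none of the 8 was at 0 in any library. Their part in the Pltp values was not tested.

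**Figure D1:**
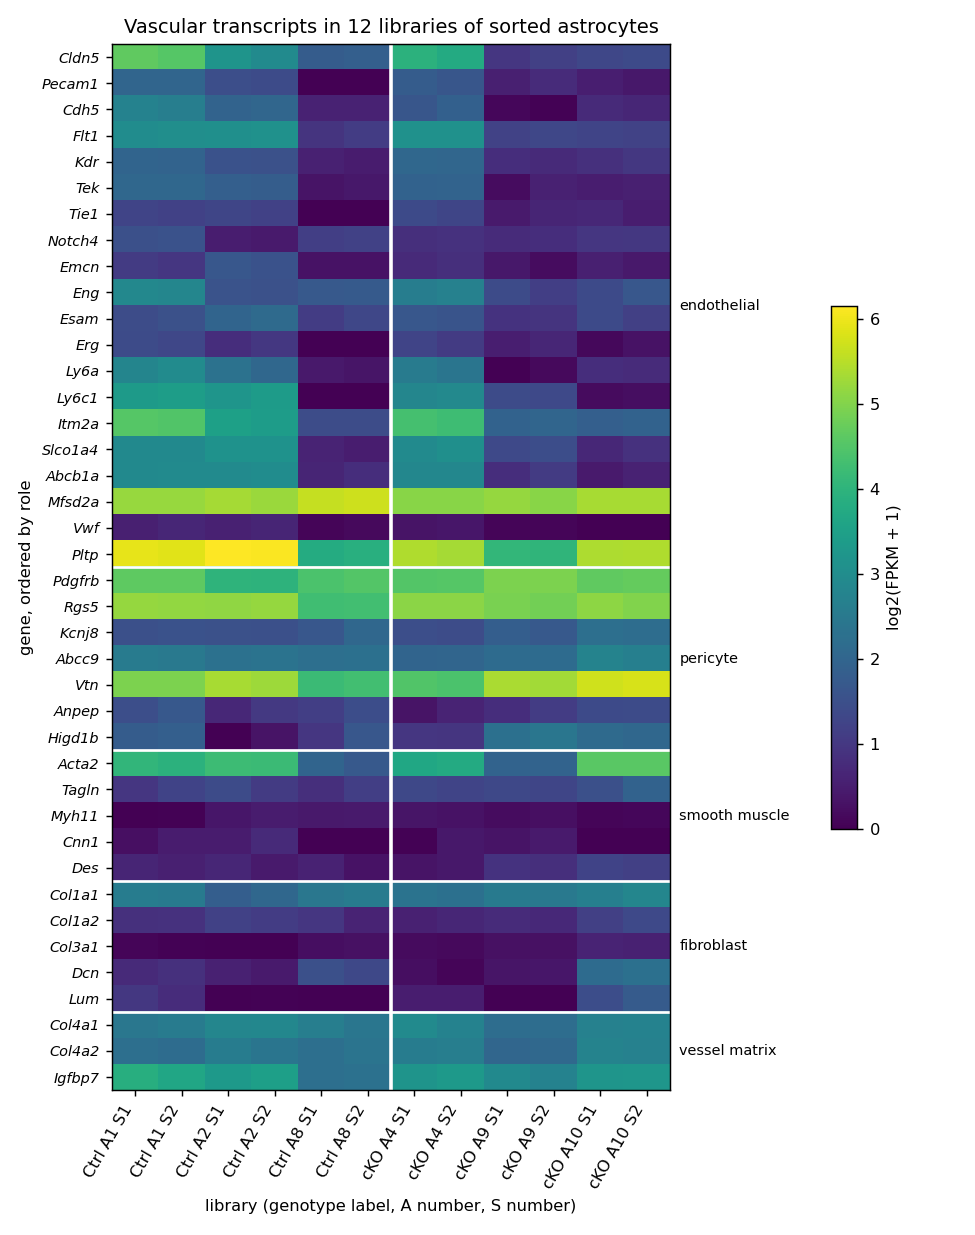
Each row is a member gene ordered by role, each column a library with its genotype label, A number and S number, and the colour is log2(FPKM + 1). Most endothelial rows are brighter in A1, A2 and A4 than in A8, A9 and A10 in both S libraries, though many are low throughout. Mfsd2a and the pericyte genes Pdgfrb and Rgs5 stay bright in all 12.

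The order of the units was counted over each role group. In 16 of the 20 endothelial members A1, A2 and A4 were the 3 highest units, and in the other 4 (Notch4, Eng, Mfsd2a and Pltp) they were not. The same order held for 7.89% of the 17540 genes with a mean of at least 1 FPKM. Of the 16 endothelial members that reached this mean, it held for 12. Among the 20 members of the other roles it held for 2, Rgs5 and Igfbp7. It was noticed in these values, is not a grouping of the study and was given no test. With the S1 libraries alone it held for 17 endothelial members and with S2 alone for 16. With S1 alone it held for neither Rgs5 nor Igfbp7, because A10 lay above A4 in both. The largest gap between S1 and S2 in any unit had a median of 0.20 on the log2(FPKM + 1) scale over the endothelial members, against a median range between units of 1.85. Over all genes with a mean of at least 1 FPKM these medians were 0.23 and 0.88. A8 was the lowest unit for 11 of the 20 endothelial members and for 26.1% of all genes tested, the largest share of any unit. A9 was lowest for 5 of the 20 and 17.8% of all genes, and A10 for 2 and 10.4%. The A8 libraries had the fewest genes above 0, 21342 in S1 and 21572 in S2, against 23669 to 26668 in the others. Whether these library traits bear on the order was not tested.

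Of 26 further endothelial genes, none of them a member, 18 had the same order and 8 did not. Among the 12 with a mean of at least 1 FPKM it held for 10. This list was chosen with earlier results of these data known, so it is no independent check. Ptprb and Adgrl4 were picked from it after their values were seen. The receptor phosphatase Ptprb was at 5.32, 6.13 and 0.524 FPKM in Ctrl and at 7.28, 0.874 and 0.500 FPKM in cKO. Adgrl4, an endothelial adhesion receptor, ran from 0.137 FPKM in A8 to 4.95 FPKM in A2. S1pr1, the sphingosine-1-phosphate receptor, did not follow: it was at 377 to 459 FPKM in Ctrl and 445 to 623 FPKM in cKO, in the range of the astrocyte glutamate transporter Slc1a3 (374 to 580 FPKM). Slc2a1, the glucose transporter of barrier endothelium and, at lower level, of astrocytes, had the order but ran only from 42.5 to 68.3 FPKM. Its A4 (53.3 FPKM) lay just above A10 (51.4 FPKM).

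Of the 7 pericyte members only Rgs5 had A1, A2 and A4 as its highest units. The group varied less than the endothelial members, with a median range between units of 0.96 on the log2(FPKM + 1) scale. That is close to the 0.88 of all genes tested. In the further lists the median ranges were nearly alike, 1.2 for 26 endothelial genes and 1.11 for 18 mural genes. Of the 7, 3 were highest in A10, 2 in A1 and 2 in A9. Pdgfrb (ENSMUSG00000024620, chromosome 18, start 61178222, end 61218133), the receptor through which endothelial PDGF-B holds pericytes on the vessel, was at 23.9, 14.8 and 21.1 FPKM in Ctrl and at 21.9, 29.7 and 24.6 FPKM in cKO. Its highest unit was A9, where Cdh5 had its lowest value, and its range was 2.01-fold. Rgs5 (ENSMUSG00000026678, chromosome 1, start 169483070, end 169523382), a regulator of G protein signalling used as a pericyte marker, was at 34.8, 34.5 and 18.4 FPKM in Ctrl and at 32.9, 28.3 and 32.1 FPKM in cKO, with A8 lowest and the cKO units A4 and A10 almost level. Vtn, which encodes vitronectin, was at 29.6, 38.6 and 18.0 FPKM in Ctrl and at 21, 39.1 and 52.7 FPKM in cKO. A10, low in endothelial genes, held the highest Vtn value.

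Kcnj8 and Abcc9 encode the pore and the regulatory subunit of the vascular KATP channel and lie on the same strand of chromosome 6, 16248 bases apart in the deposited coordinates. Kcnj8 was at 1.75 to 3.64 FPKM and Abcc9 at 2.97 to 5.54 FPKM, both highest in A10 and lowest in A4. Their ratio ran from 0.397 in A1 to 0.708 in A9, while Kcnj8 alone ranged 2.08-fold and Abcc9 1.87-fold. The surface peptidase gene Anpep was at 0.388 to 2.02 FPKM. Higd1b, a mitochondrial protein gene of pericytes, was at 2.57, 0.126 and 1.57 FPKM in Ctrl and at 0.95, 4.07 and 3.26 FPKM in cKO. A2 was near the floor for Higd1b although it was among the high units for endothelial genes.

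The balance of pericyte to endothelial transcripts therefore differed between units. Summed over the 7 pericyte members, the level was 99.5, 94.7 and 66.9 FPKM in Ctrl A1, A2 and A8 and 81.8, 108 and 123 FPKM in cKO A4, A9 and A10. The endothelial members without Mfsd2a and Pltp, left out after their values were seen, summed to 110, 71.2 and 13.1 FPKM and to 86.4, 15.6 and 15.3 FPKM. The pericyte sum was thus 0.906 to 1.33 times that endothelial sum in A1, A2 and A4 and 5.11 to 8.05 times in A8, A9 and A10. With Mfsd2a and Pltp kept in, the ratio was 0.487, 0.533 and 0.882 in A1, A2 and A8 and 0.513, 1.67 and 1.27 in A4, A9 and A10, a much smaller contrast. Over all 20 endothelial members, the mean log2(FPKM + 1) of endothelial minus pericyte genes was -0.47, -0.37 and -1.76 in Ctrl and -0.25, -2.01 and -2.15 in cKO. Only 1 of 18 further mural genes had A1, A2 and A4 as its highest units.

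**Figure D2:**
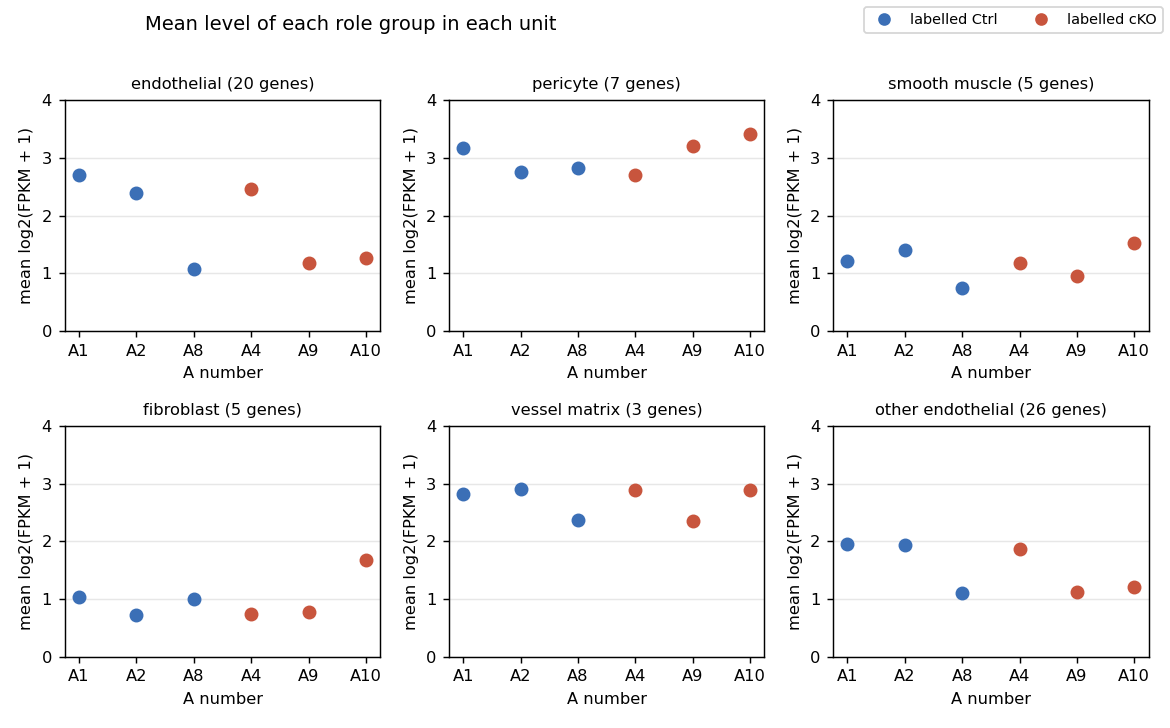
Each point is the mean log2(FPKM + 1) of a gene group in 1 unit, by A number, coloured by genotype label. Endothelial members and the further endothelial genes are high in A1, A2 and A4 (2.39 to 2.71 for the members) and low in A8, A9 and A10 (1.07 to 1.26), whereas the pericyte means lie between 2.71 and 3.41 in all units.

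Of the smooth muscle members, only Acta2 was above 2.33 FPKM in any unit. Acta2 (ENSMUSG00000035783, chromosome 19, start 34218490, end 34232990), which encodes smooth muscle actin, was at 15.0, 17.5 and 2.62 FPKM in Ctrl and at 12.1, 2.88 and 22.9 FPKM in cKO. A8 and A9 were the low units, as for Pltp and the ependymal sums given above, whose part in it was not tested. Myh11, the smooth muscle myosin and the most specific gene of this role, stayed at 0.0127 to 0.343 FPKM and was lowest in A1, where Acta2 was high. The actin-binding gene Cnn1 was at 0 in all libraries of A8 and A10. Tagln, which encodes the actin-binding protein SM22, was at 0.994 to 1.38 FPKM in Ctrl and at 1.46 to 2.33 FPKM in cKO. Des, which encodes desmin, was at 0.279 to 1.29 FPKM. Acta2 was 12.9 times Tagln in A1 and 1.96 times in A9, so the 2 contractile genes did not keep a ratio. Reads were divided with another gene for 14 members in at least 1 library, most often for Tagln (8 of 12 libraries), whose values are uncertain for that reason.

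Fibroblast members were low except Col1a1. Col1a1, a chain of type I collagen, was at 4.86, 2.86 and 4.68 FPKM in Ctrl and at 3.94, 4.68 and 5.74 FPKM in cKO, and its partner chain Col1a2 at 0.530 to 1.39 FPKM. Dcn, which encodes the proteoglycan decorin, was at 0.740, 0.420 and 1.68 FPKM in Ctrl and at 0.119, 0.289 and 3.61 FPKM in cKO. Lum, which encodes lumican, reached 2.06 FPKM in A10 and was at 0 in both libraries of A8 and A9. Col3a1, the type III collagen gene of fibroblasts, was at 0 in A2 and at most 0.506 FPKM, in A10. All 5 fibroblast members had their highest value in A10, as did 13.9% of all genes tested. Only Col1a1 and Dcn of the 5 averaged at least 1 FPKM. Of 20 further fibroblast genes 8 were highest in A10 and 7 in A2. The 7 choroid plexus markers summed to 461 FPKM in A10 (433 FPKM of it Ttr, the transthyretin gene), to 12.9 to 73.6 FPKM in Ctrl and to 4.37 and 7.56 FPKM in A9 and A4. Of these markers Aqp1 was at 0 in A2, A8 and A9. Their part in the fibroblast values was not tested.

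Of the vessel matrix genes, the collagen chains varied little and Igfbp7 more. Col4a1 and Col4a2, the type IV collagen chains of the basement membrane, are transcribed from opposite strands of chromosome 8 and overlap slightly in the deposited coordinates. Whether counting used strand is not given in the sources used here. Col4a1 was at 3.58 to 6.17 FPKM and Col4a2 at 3.17 to 5.66 FPKM, with a ratio of 0.983 to 1.33 in the units. Igfbp7, an insulin-like growth factor binding protein of vessel walls, was at 12.4, 9.55 and 3.82 FPKM in Ctrl and at 8.55, 6.09 and 8.29 FPKM in cKO. Only Igfbp7 of these 3 had A1, A2 and A4 as its highest units.

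**Figure D3:**
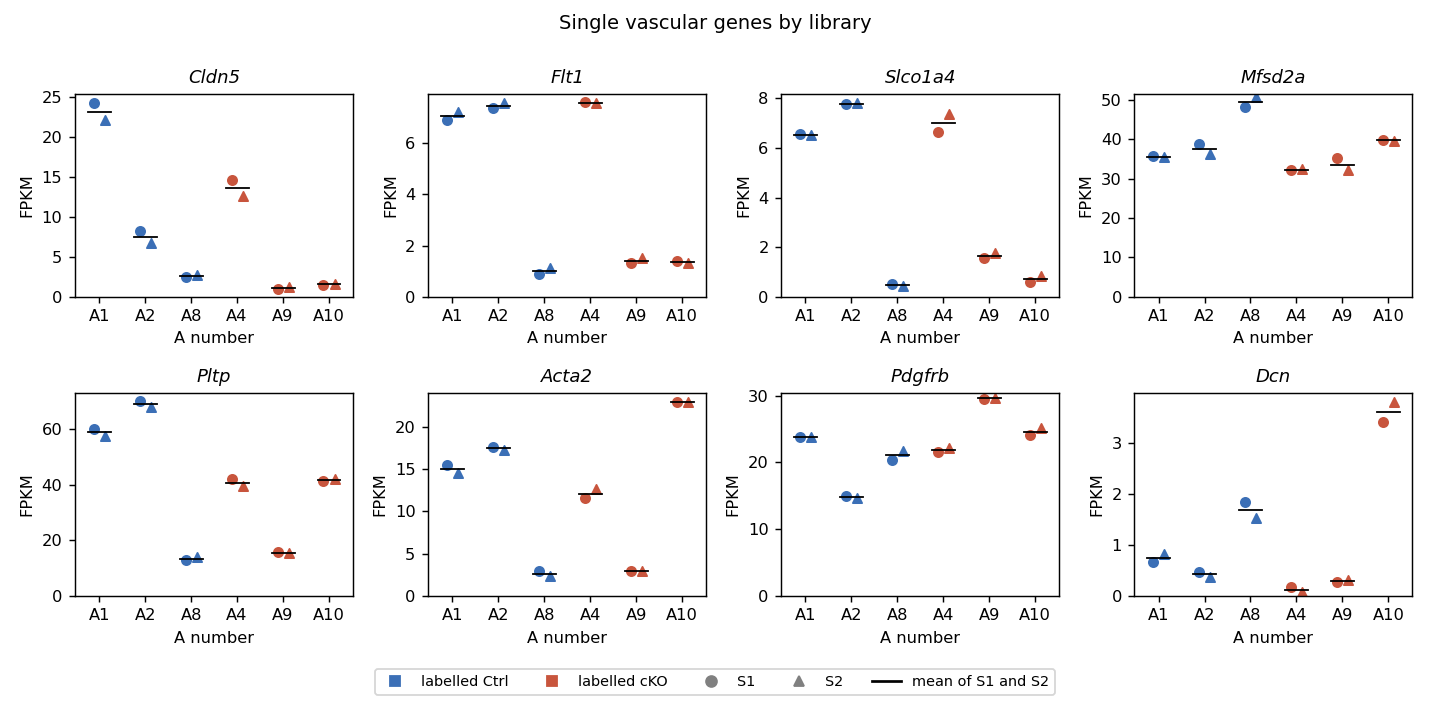
Each panel gives a gene's FPKM in the S1 (circle) and S2 (triangle) library of each A number, with a line at their mean and colour for the genotype label. Cldn5, Flt1 and Slco1a4 separate A1, A2 and A4 from the rest, Mfsd2a and Pdgfrb do not, and Pltp, Acta2 and Dcn each have a high A10.

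The comparison of cKO with Ctrl asks whether loss of astroglial TNFR2 went with other levels of vessel transcripts in the sort. The 30 members with a mean of at least 1 FPKM over the 12 libraries were in the test, the lowest of them Notch4 at 1.01 FPKM. The highest of the 10 left out was Col1a2 at 0.898 FPKM. By limma, 0 of the 30 members had an adjusted p under 0.05 and 0 had an unadjusted p under 0.05. Of all 17540 genes tested, 0 (0.0%) passed the adjusted threshold and 1356 (7.73%) the unadjusted one. The smallest adjusted p of a member was 0.774. With no filter on low values all 40 members were tested and 0 passed.

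The difference, cKO minus Ctrl on the log2(FPKM + 1) scale, was negative for 19 of the 20 endothelial members. The median of the 20 was -0.38, against -0.01 over all genes tested, of which 50.9% were negative. For low genes the added 1 makes such a difference smaller than the true fold. In all 20 the units of the genotypes overlapped. The median ran from -0.89 without A8 to -0.15 without A1, and it was -0.62 without A4. Cldn5 averaged 11 ± 10.8 FPKM over the Ctrl units and 5.42 ± 7.09 FPKM over the cKO units (SD, n = 3 units), a log2 difference of -1.07 (SE 0.92, limma adjusted p = 0.877). Cdh5 differed by -0.91 (SE 0.65, limma adjusted p = 0.845). Flt1 averaged 5.19 ± 3.62 and 3.46 ± 3.58 FPKM, a difference of -0.50 (SE 0.72, limma adjusted p = 0.939). For Cldn5 and Flt1 the SD of the cKO units was above their mean, and the differences of both were close to or below their standard errors.

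Mfsd2a, with its narrow spread, averaged 40.9 ± 7.52 FPKM for Ctrl and 35.3 ± 4.03 FPKM for cKO (SD, n = 3 units each), a log2 difference of -0.20 (SE 0.16, limma adjusted p = 0.863). Of the 7 pericyte members 5 had a positive difference, and the median of the 7 was 0.18. Anpep (-0.31) and Abcc9 (-0.09) were negative. Pdgfrb had the smallest unadjusted p of the members, 0.128: its means were 19.9 ± 4.65 FPKM for Ctrl and 25.4 ± 3.92 FPKM for cKO, a difference of 0.35 (SE 0.20, limma adjusted p = 0.774). Rgs5 differed by 0.14 (SE 0.25) and Vtn by 0.35 (SE 0.39), with limma adjusted p of 0.957 and 0.911. The Rgs5 difference turned to -0.16 without A8.

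Smooth muscle, fibroblast and vessel matrix members had median differences of 0.06, 0.19 and -0.04. Tagln was the 1 member of 40 whose cKO units all lay above the Ctrl units, an order held by 5.73% of all genes tested, and its limma adjusted p was 0.877 (difference 0.33, SE 0.28). No member had all cKO units below all Ctrl units, an order held by 7.26% of genes. Acta2 differed by 0.06 (SE 0.83) and Dcn by 0.00 (SE 0.63), and the sign of each depended on which A number was left out.

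**Figure D4:**
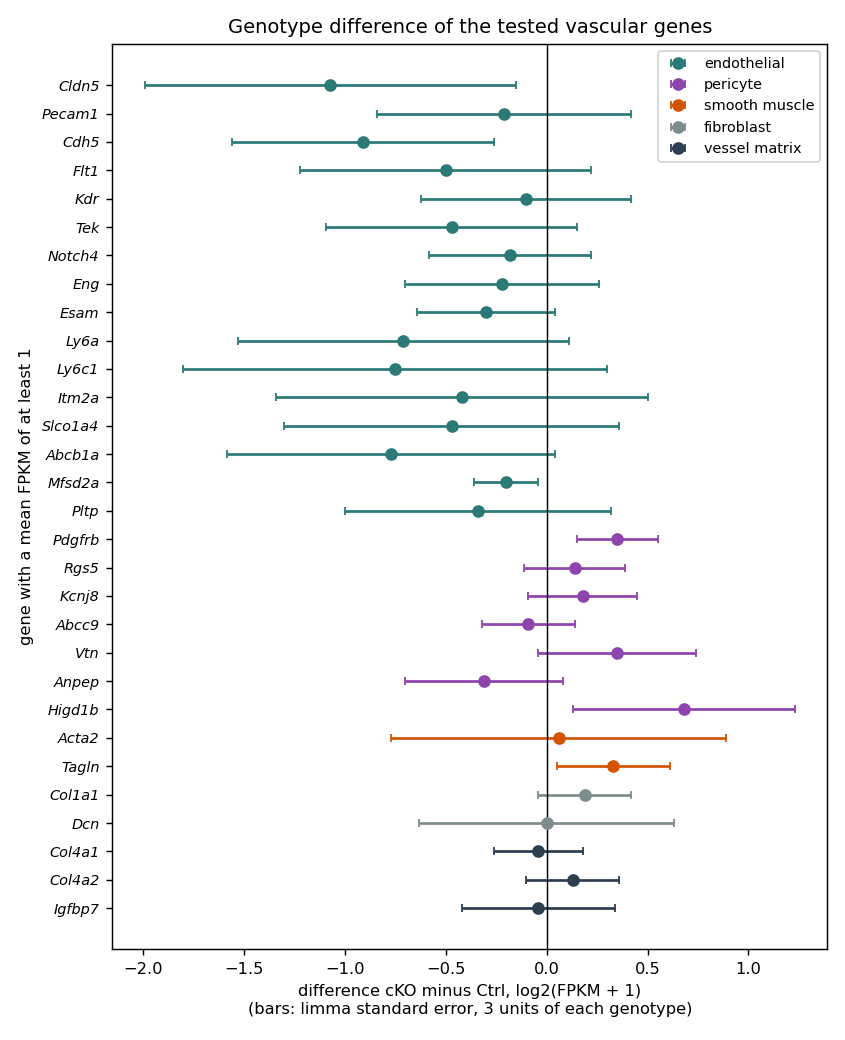
Points are the difference cKO minus Ctrl in log2(FPKM + 1) of the 30 members tested, coloured by role, with limma standard errors over 3 units of each genotype. Endothelial genes lie left of 0, with Cldn5 at -1.07 and a wide bar (SE 0.92) and Mfsd2a at -0.20 with a narrow one (SE 0.16). Of the 7 pericyte genes 5 lie right of 0, while Abcc9 is at -0.09 and Anpep at -0.31. None of the 30 passed the adjusted threshold.

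The ligands of the members' receptors were examined from a separate list of 16 genes, of which 9 were tested and 0 passed. Vegfa, the ligand of Flt1 and Kdr, was at 89.0, 73.8 and 85.3 FPKM in Ctrl and at 112, 98.7 and 93.7 FPKM in cKO. Angpt1, the Tek agonist, was at 2.94, 5.74 and 5.02 FPKM in Ctrl and at 7.03, 8.48 and 6.33 FPKM in cKO. Vegfb, a ligand of Flt1, was at 17.5, 15.8 and 12 FPKM in Ctrl and at 24.4, 22.6 and 17.8 FPKM in cKO. In each of the 3 genes all cKO units lay above all Ctrl units, as they did for 4 of the 16 ligands, 3 of them among the 9 tested, and for 5.73% of all genes tested. Their log2 differences were 0.29 (SE 0.12), 0.60 (SE 0.24) and 0.49 (SE 0.19), and their limma adjusted p were 0.644, 0.628 and 0.608, so none passed. Pdgfb, the endothelial ligand of Pdgfrb, followed the endothelial order instead, at 1.60, 2.05 and 0.0597 FPKM in Ctrl and at 0.923, 0.464 and 0.736 FPKM in cKO. The Notch ligand Dll4 did so too, with 0 in A8 and A10.

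Further genes of each cell type were counted in the same fit. Of 26 further endothelial genes 12 were tested and 0 passed; the smallest unadjusted p were those of S1pr1, Slc19a3 and Nos3, with limma adjusted p of 0.756, 0.831 and 0.890. Of 18 further mural genes 12 were tested and 0 passed. Mcam, an adhesion molecule of mural cells and endothelium, was at 17.6, 14.2 and 5.10 FPKM in Ctrl and at 2.68, 2.37 and 5.88 FPKM in cKO, a log2 difference of -1.44 (SE 0.47, limma adjusted p = 0.527). Ndufa4l2, a pericyte gene, differed by 1.0 (SE 0.39, limma adjusted p = 0.618) and Atp13a5, a pericyte transport ATPase, by 0.40 (SE 0.24, limma adjusted p = 0.794). Of 20 further fibroblast genes 9 were tested and 0 passed, with limma adjusted p of 0.697 for Bgn, 0.864 for Fbln1 and 0.932 for Mgp. All cKO units lay below all Ctrl units for 1 further endothelial and 1 further fibroblast gene, neither of them tested. They all lay above for 2 further mural genes, Ndufa4l2 among them, and for 1 further fibroblast gene, Bgn. Over all genes tested the shares were 7.26% below and 5.73% above. Perivascular macrophage markers were at or near 0, with 3 of 6 at 0 in every library and a summed level of 0.017 to 0.870 FPKM in the units.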

How the data were processed

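The authors deposited 1 table of FPKM values per gene and library, 12 libraries in all. Per the submitters' processing notes, FastQC, STAR, featureCounts and DESeq2 were used with the builds mm10 and GRCm38; their versions and roles are not given in the sources used here. Of the 40 members, 40 matched GENCODE M21 (GRCm38) by identifier but only 1 had the same start and end. The deposited coordinates are therefore not those of M21 on GRCm38. They are printed as deposited, and the build they follow is not settled. FPKM times kilobases summed to 1000000 in each library, and depth was recovered from whole steps of low values (tolerance 0.01 of a read).

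Rows sharing a symbol were summed and S1 and S2 averaged per A number. Genes with a mean of at least 1 FPKM (17540) were compared as log2(FPKM + 1) with limma 3.58.1 in R 4.3.3 (variance trend, two-sided), Benjamini-Hochberg adjusted over all of them, threshold 0.05. Role groups are described by counts and medians, with no test. The fit was also run on simulated data as a check of the code. That run does not show which differences could be found in the members. Figures and summaries used Python 3.11.15.

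The members, role groups and further lists were chosen with earlier results of these data known. The naming rule covers all 40 members, the 3 genes with the smallest unadjusted p of each further list, and Vegfa, Angpt1 and Pdgfb; Ptprb, Adgrl4, Slc2a1 and Dll4 were added after their values were seen. Alternatives changed the pseudocount, filter, scaling, moderation, averaging and libraries used.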

Additional observations from a re-analysis of the deposited data

How the results depend on the processing

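Under all 18 other fits, limma called 0 members. The count over all genes was 0 except for 1 gene with eBayes without trend, 112 genes when the 12 libraries entered with a random effect of A number (13 higher, 99 lower), 80 genes with the replicate block (S1, S2) added to that model, and 0 to 1 when each A number was left out (1 without A1). Same-numbered libraries share only their S number, so no Ctrl unit is paired with a cKO unit, and the block changed no call of a member. Limma voom on recovered reads, chosen after seeing the data, also called 0. The cause of the 112 was not tested. Adjusted p of the ligands ran from 0.211 to 1.0 for Vegfa, 0.419 to 1.0 for Vegfb and 0.35 to 1.0 for Angpt1, and that of Mcam from 0.0994 to 1.0. The count at unadjusted p under 0.05 was 860 without A9 and 2430 without A8. Single differences that changed sign were all far from the threshold. Pecam1 was 0.13 and Dcn -0.43 with a pseudocount of 0.1. Col4a1 was 0.02 and Igfbp7 0.03 with upper quartile scaling, and Dcn was -0.01 with trimmed mean scaling. With S1 alone Acta2 was -0.01 and Dcn -0.03. When each A number was left out, the difference ran from -0.78 to 0.22 for Pecam1, -0.51 to 0.22 for Kdr, -0.47 to 0.06 for Notch4, -0.64 to 0.18 for Eng, -1.26 to 0.27 for Itm2a, -1.30 to 0.00 for Slco1a4 and -1.07 to 0.11 for Pltp. It ran from -0.16 to 0.29 for Rgs5, -0.02 to 0.36 for Kcnj8, -0.30 to 0.06 for Abcc9, -0.69 to 0.79 for Acta2, -0.01 to 0.29 for Col1a1, -0.65 to 0.38 for Dcn, -0.17 to 0.15 for Col4a1, -0.01 to 0.33 for Col4a2 and -0.47 to 0.26 for Igfbp7. Depth limits members listed at 0 in a unit, which can be given only as at or under the floor of 3 reads per library.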

Other observations

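Some genes of the further fibroblast list had the endothelial order of units and not that of the fibroblast members. Fn1, which encodes fibronectin, was at 5.6, 6.13 and 0.182 FPKM in Ctrl A1, A2 and A8 and at 4.77, 1.26 and 1.18 FPKM in cKO A4, A9 and A10. Foxc1, a transcription factor of vessel-associated mesenchyme, was at 2.49, 2.68 and 0.147 FPKM in Ctrl and at 2.46, 1.10 and 1.55 FPKM in cKO. Both were named after their values were seen. Of that list 3 genes of 20 had A1, A2 and A4 as their highest units, and the third was Col15a1, which was near 0 in most libraries. Ocln, the tight junction protein occludin, was at 10.9, 9.71 and 1.95 FPKM in Ctrl and at 7.05, 1.54 and 6.18 FPKM in cKO, so that A10 lay close to A4 as it did for Pltp and unlike Cldn5.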
